A study of Drosophila melanogaster with 6 samples.

Results

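The vacuolar ATPase genes of *Drosophila melanogaster* were examined in larval body wall after knockdown of Mad in muscle. They were taken as every gene of the deposited table whose symbol begins with Vha, which gave 32 of 17807 genes. Of the 32, 20 were abundant enough to be tested, and none of these was called changed, where 2.59% of all tested genes were. The 17 Vha genes with at least 1000 normalized counts in every library stood after Mad knockdown between 92.3% and 114.4% of their control level.

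The study compared 2 groups of 3 libraries of polyadenylated RNA from wandering third-instar larvae, the stage that leaves the food before pupariation. Each library pooled muscle-enriched body wall lysates of 6 to 10 larvae. Control libraries carried Dmef2-Gal4 and UAS-mCherryRNAi, and Mad knockdown libraries carried Dmef2-Gal4 and UAS-madRNAi. All 6 therefore share the Dmef2-Gal4 driver, which acts in muscle, and all express a hairpin. Mad is the transcription factor that carries bone morphogenetic protein (BMP) signals to the nucleus, and mCherry is a foreign fluorescent protein with no counterpart in the fly genome.

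The vacuolar ATPase is a rotary proton pump of lysosomes, endosomes, secretory vesicles and some plasma membranes. Its V1 sector hydrolyses ATP in the cytosol, and its V0 sector passes protons through the membrane as its ring of proteolipid subunits turns. Flies hold several genes for many of the subunits. Some are used in most tissues, while others are known chiefly from single tissues such as testis or gut.

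Recovered counts ran from 96639921 to 127220949 per library, so that the spread between libraries rather than counting error limits all but the lowest genes. The targeted gene, Mad, was at 7533, 7658 and 7010 normalized counts in control replicates 1 to 3 and at 4348, 5643 and 5053 after its knockdown, or -0.57 as a log2 fold change, and limma gave an adjusted p of 0.0440. That call held without Mad knockdown replicate 2 and was lost on leaving out any other library. An exact two-sided permutation test gave 0.1, the smallest p that 3 libraries against 3 allow. Nothing in the labels says that the pools of a group came from separate crosses, so p-values measure only the spread between these libraries. The muscle marker list held signal in every library, at summed normalized counts from 3564000 to 4623000 in controls and from 1819000 to 2523000 after Mad knockdown. Of its 15 genes 4 were called in limma, all lower, where 1.57% of all tested genes were called lower. At an unadjusted p under 0.05, 13 of the 15 were lower and 0 higher, where 10.7% of all tested genes were lower. In such bulk lysates, fewer cells of a type and less RNA per cell cannot be told apart.

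The Vha genes fell into distinct ranges of abundance. Normalized counts were divided by kilobases of annotated exon so that genes could be compared. 17 genes lay above 2000 per kb on average, 3 lay between 11.82 and 113 per kb, and the remaining 12 held 112 recovered counts in all over the 6 libraries. These 12 were not tested, because the test took genes that reached 10 normalized counts in 3 or more libraries. No Vha gene lay between 113 and 2078 per kb.

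**Figure D1:**
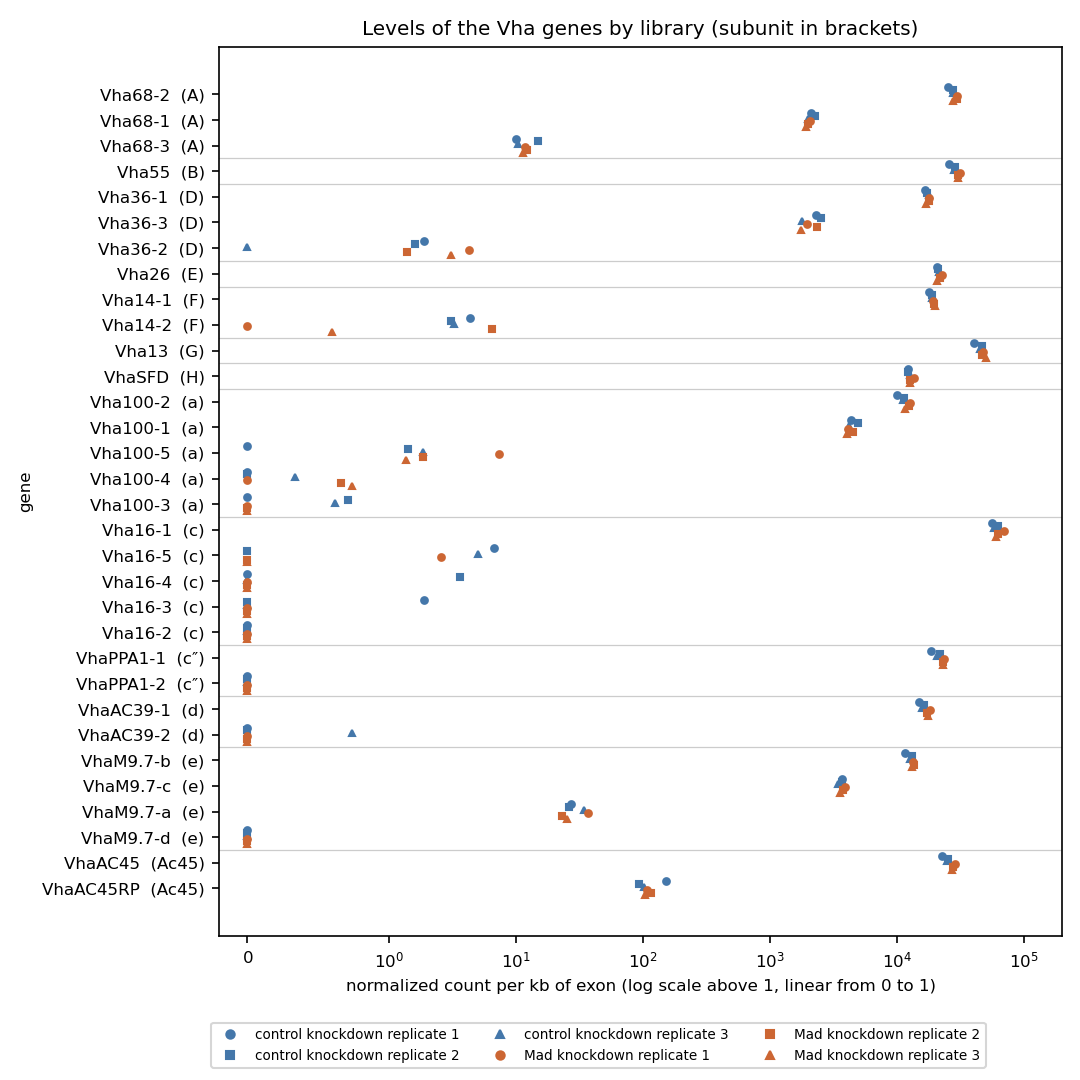
Normalized count per kilobase of exon (horizontal axis, logarithmic above 1 and linear from 0 to 1) of all 32 Vha genes in each library, with the subunit in brackets. Blue points are control libraries, orange points are Mad knockdown libraries, and the marker shape gives the replicate; each subunit has a leading gene above 10000 per kb.

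In the membrane sector, Vha16-1 was the most abundant Vha gene per kilobase. It encodes subunit c, the proteolipid that is present in many copies in the rotating ring. Its level per kb was 58930 ± 3020 in controls and 64440 ± 5000 after Mad knockdown (SD, n = 3 each). Its normalized counts were 173769, 191707 and 178522 in controls and 215475, 193611 and 185796 after Mad knockdown, here and below in the order of replicates 1 to 3. The groups overlapped, with Mad knockdown replicate 1 the highest library. The log2 fold change was 0.13, with a 95% interval from -0.11 to 0.37. The other subunit c genes, Vha16-2, Vha16-3, Vha16-4 and Vha16-5, held 0, 1, 2 and 10 counts over the 6 libraries. Of the exon bases of Vha16-2, 84.5% are shared with an antisense RNA gene, so its 0 is uncertain without a stated strand setting.

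Subunit c double prime, a second kind of ring proteolipid, came from VhaPPA1-1, at 20490 ± 1610 per kb in controls. VhaPPA1-1 had normalized counts of 25301, 29552 and 28237 in controls and 31700.3, 31179 and 31424 after Mad knockdown. Every Mad knockdown library was above every control, and the mean was 113.5% of control. In limma its log2 fold change was 0.19 (95% interval 0.0093 to 0.36), with an unadjusted p of 0.0418 and a Benjamini-Hochberg adjusted p of 0.243. Its paralogue VhaPPA1-2, 2052 bases away on chromosome 3R, was at 0 in all 6 libraries.

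Subunit d, which couples the central stalk to the ring, came from VhaAC39-1. Its normalized counts were 26993, 29199.5 and 28127 in controls and 32593, 31156 and 31569.7 after Mad knockdown. The groups did not overlap, and the mean was 113.0% of control. The log2 fold change in limma was 0.18 (95% interval 0.033 to 0.32), with an unadjusted p of 0.0230 and an adjusted p of 0.186, the lowest adjusted p of any Vha gene. VhaAC39-2 held 1 count in all.

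Subunit a is the large membrane protein that forms the proton path beside the ring, and in other eukaryotes its isoforms direct the pump to different membranes. In flies Vha100-1 is known for its role at synapses. Vha100-2 was the main form here, with 32245, 36755 and 36226 normalized counts in controls and 40760.3, 40323 and 37150.2 after Mad knockdown. Vha100-1 had 14427, 16328 and 13752 in controls and 13541, 14862 and 13263.5 after Mad knockdown. The groups did not overlap for Vha100-2 and overlapped for Vha100-1. In limma the log2 fold changes were 0.17 (95% interval -0.019 to 0.36) for Vha100-2 and -0.093 (-0.30 to 0.11) for Vha100-1, with adjusted p-values of 0.314 and 0.616. Vha100-3 and Vha100-4 held 4 and 5 counts over all libraries. Vha100-5 held 43, of which 23 were in Mad knockdown replicate 1 alone, and 18.1% of its exon bases are shared with an antisense RNA gene, so the origin of these reads is uncertain without a stated strand setting.

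Subunit e is a small hydrophobic protein of V0. VhaM9.7-b was its main source, with 14196, 16029 and 15606 normalized counts in controls and 16311, 16734 and 16019.5 after Mad knockdown. VhaM9.7-c had 3165, 3126 and 2933 in controls and 3349.75, 3211 and 3059 after Mad knockdown. Both genes overlapped between the groups, by a small margin for VhaM9.7-b. Their log2 fold changes were 0.10 (SE 0.0654) and 0.060 (SE 0.0640). VhaM9.7-a was at 20.95 ± 3.19 in controls and 20.2 ± 5.24 normalized counts after Mad knockdown, and VhaM9.7-d was at 0 throughout.

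In the catalytic V1 sector, subunits A and B alternate in the head that hydrolyses ATP, and A holds the catalytic site. Vha68-2, the main subunit A gene, had 69975, 75934 and 76833 normalized counts in controls and 82469, 82433 and 77099 after Mad knockdown. Vha55, for subunit B, had 71289, 80568 and 78969 in controls and 88439, 84859 and 84133 after Mad knockdown. Neither gene overlapped between the groups, although for Vha68-2 control replicate 3 and Mad knockdown replicate 3 nearly met. The log2 fold changes in limma were 0.12 (SE 0.0760) for Vha68-2 and 0.16 (SE 0.0791) for Vha55, with adjusted p-values of 0.464 and 0.346. Per kilobase of exon, Vha68-2 stood at 26910 ± 1351 and Vha55 at 27620 ± 1780 in controls, a difference smaller than their spread.

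The second subunit A gene, Vha68-1, had 5705, 6129 and 5407 normalized counts in controls and 5596, 5331 and 5213 after Mad knockdown. Its groups overlapped, with a log2 fold change of -0.094 (95% interval -0.25 to 0.066). Vha68-3 was at 28.8 ± 6.63 in controls and 29.03 ± 0.867 after Mad knockdown. It begins 178 bases downstream of Vha68-2 on the same strand of chromosome 2L, yet stood at 11.82 per kb against 28070 per kb for its neighbour. A like contrast held on chromosome 3R, where Vha100-4 lies 517 bases from Vha100-2 and had 0.29 per kb against 11560.

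Of the stalk subunits, Vha36-1 encodes subunit D of the central rotor and had 17752, 18387 and 19022 normalized counts in controls and 19109, 19165 and 18183 after Mad knockdown. Its paralogue Vha36-3 had 2987, 3262 and 2303 in controls and 2547, 3059.6 and 2287 after Mad knockdown, the widest scatter among the 17 abundant genes. Vha36-2 held 16 counts over the 6 libraries. Vha14-1, for rotor subunit F, had 11784, 12548 and 12539.9 in controls and 12811, 13065 and 13124.5 after Mad knockdown, with no overlap, and Vha14-2 held 30 counts in all.

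Subunits E and G form the outer stalks that hold the head still. Vha26, for subunit E, had 60268, 61910.4 and 62712 normalized counts in controls and 66983, 64335 and 60522 after Mad knockdown. Vha13, for subunit G, had 37972, 44310.4 and 42510.1 in controls and 45429.9, 44508 and 47563 after Mad knockdown. The groups overlapped for Vha26 and not for Vha13. Per kilobase, Vha13 was the second most abundant Vha gene, at 44110 ± 3464 in controls.

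VhaSFD encodes subunit H, which links the sectors and is known from yeast to silence free V1. Its normalized counts were 34402, 34647 and 36142 in controls and 38387, 35878.5 and 35975 after Mad knockdown. The groups overlapped, and the log2 fold change was 0.067 (95% interval -0.081 to 0.22). No row of the table bears the symbol of the subunit C gene, which was not analysed here. As 56 genes of the table carry no symbol, it may be among those.

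The accessory protein Ac45 assists assembly and targeting of the pump in other animals. VhaAC45 had 45875, 51309 and 50253 normalized counts in controls and 57553, 56052 and 55036 after Mad knockdown. The groups did not overlap, and its mean after Mad knockdown, 114.4% of control, was the highest percentage among the abundant Vha genes. In limma its log2 fold change was 0.20 (95% interval 0.025 to 0.37), with an unadjusted p of 0.0306 and an adjusted p of 0.212. VhaAC45RP, a related gene, was at 194 ± 52.6 in controls and 184 ± 11.1 after Mad knockdown. The other accessory gene, ATP6AP2, whose symbol lies outside the selection and whose values were seen before it was named, had a mean of 29907 ± 1587 in controls and 32646 ± 852 after Mad knockdown, with an adjusted p of 0.361 in limma.

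**Figure D2:**
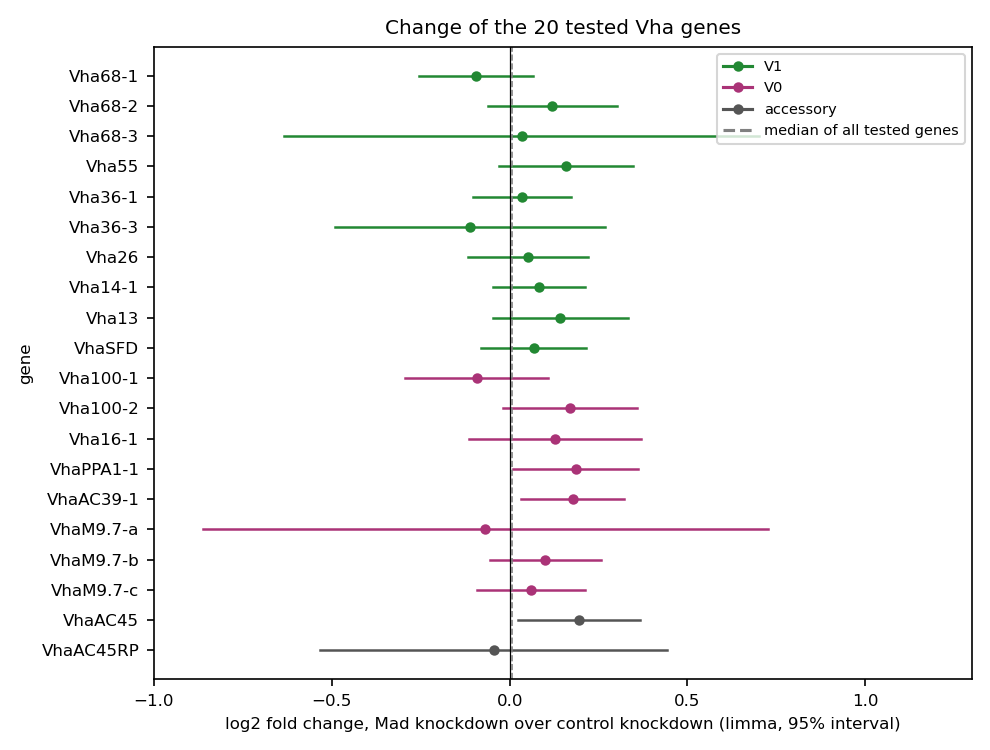
Log2 fold change of Mad knockdown over control knockdown for the 20 tested Vha genes, with limma's 95% interval, coloured by sector; the dashed line is the median of all tested genes. The intervals of VhaPPA1-1, VhaAC39-1 and VhaAC45 lie above 0, and the 3 widest belong to low genes.

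Over the 20 tested Vha genes limma called none, where the background over all 10348 tested genes was 2.59%. On recovered counts of the 5 libraries without Mad knockdown replicate 3, edgeR and DESeq2 also called none. Over all 10348 tested genes edgeR called 174 and DESeq2 called 1105. An unadjusted p under 0.05 was reached by 0 Vha genes in edgeR and 3 in DESeq2, and the share over all genes was not computed there. In limma 3 had an unadjusted p under 0.05, all higher, where 8.31% of all tested genes were higher at that level. 8 of the 20 lay wholly above the control libraries, where 11.6% of all tested genes did, and none lay wholly below, where 13.0% did. The fitted change was above 0 for 15 of the 20, where 51.1% of all tested genes were. The median log2 fold change was 0.074 over the 20, against 0.0054 over all tested genes. It ran from 0.051 (without Mad knockdown replicate 1) to 0.12 (without control replicate 2) when 1 library was left out, and was 0.12 at 75th percentile scaling, where the median over all tested genes was 0.050. These genes encode parts of a single pump and are not independent, so the counts are given as a description.

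The intervals bound what these libraries leave possible. Over the 17 abundant Vha genes, the lowest 95% limit was 0.712-fold, for Vha36-3, and the highest was 1.29-fold, for Vha16-1. 14 of the 17 intervals included 0. Replicates of these genes were tight, with a median coefficient of variation of 5.86% in controls and 3.65% after Mad knockdown. The corresponding medians over all 5072 genes with at least 1000 normalized counts in every library were 6.07% and 6.95%.

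The libraries were not equal within a group. Control replicate 1 was the lowest of the 6 libraries for 13 of the 17 abundant Vha genes, and Mad knockdown replicate 1 was the highest for 10. Relative to each gene's control mean, the median of the 17 genes was 95.9%, 104.7% and 102.0% in the control libraries and 109.2%, 107.0% and 103.8% in the Mad knockdown libraries. Control replicate 2 thus exceeded Mad knockdown replicate 3. Without control replicate 1, control replicate 3 or Mad knockdown replicate 1, limma gave no Vha gene an unadjusted p under 0.05.

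**Figure D3:**
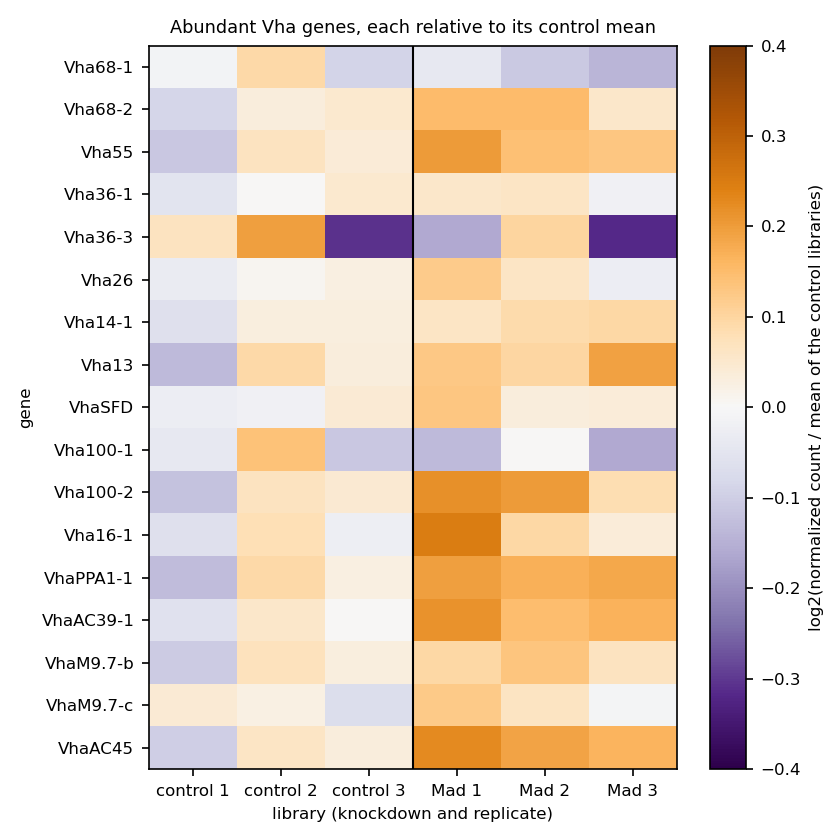
Log2 ratio of the normalized count in each library to the mean of the control libraries (colour) for the 17 Vha genes with at least 1000 normalized counts in every library, grouped by subunit. Control replicate 1 is below its group mean in most rows, and Vha68-1, Vha36-3 and Vha100-1 are the rows whose Mad knockdown mean lies below their control mean.

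Summed over all 32 genes, the Vha genes took 0.550%, 0.618% and 0.608% of the counts in controls and 0.694%, 0.642% and 0.652% after Mad knockdown. The shares of the groups did not overlap, and no test was made of a sum over chosen genes. As a percentage of the control mean, the summed normalized count of the Vha genes ran from 94.9% to 104.2% in controls and from 105.0% to 113.1% after Mad knockdown. The muscle marker list ran from 89.4% to 116.0% in controls and from 45.6% to 63.3% after Mad knockdown. The muscle list was thus lower in every Mad knockdown library than in every control, and the Vha sum was higher, by a small margin. Control replicate 1 was the library highest in the muscle list and lowest in the Vha sum.

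Markers of other tissues were present. The haemocyte list was at 212100 to 276600 summed normalized counts in controls and 171200 to 198700 after Mad knockdown, with none of its 7 genes called in limma and 4 lower at an unadjusted p under 0.05. Over all tested genes 10.7% were lower and 8.31% higher at that level. The trachea list was at 75340 to 119400 and 43130 to 84630, with none of 6 called and 3 lower and 1 higher at that unadjusted level. The epidermis list was at 8063000 to 10560000 and 7273000 to 10390000, with none of 8 called and 2 lower at that level. The fat body list (36510 to 51450 and 33570 to 53380) and the nervous system list (2132 to 2471 and 2194 to 2559) overlapped between the groups, with none of the 8 genes of either called and 1 gene of each under the unadjusted level. The salivary gland list was at 351 to 3037 and 78.5 to 193, with none of 6 tested genes called and 5 lower at the unadjusted level.

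Lists were also read for testis and midgut, to which some Vha genes are known to be restricted, and for Malpighian tubule. The testis list summed to 93 to 100.1 normalized counts in controls and 114.9 to 139 after Mad knockdown, and 3 of its 10 genes, Mst84Da, aly and ocn, were at 0 in all libraries. Most of the testis sum came from Mst87F, the only gene of that list tested, with means of 78.8 in controls and 112 after Mad knockdown. Mst87F was higher without overlap and was not called (limma unadjusted p 0.0475, adjusted p 0.257). At an unadjusted p under 0.05, 8.31% of all tested genes were higher. The midgut list summed to 881 to 1126 and 802 to 4918, with Jon99Ci and PGRP-SC1a at 0 and none of 4 tested genes called. Its upper end came from Mad knockdown replicate 3 alone, where the digestive protease gene Jon65Aiii had 3697.5 normalized counts against 72.9 and 280 in the other Mad knockdown libraries. In controls most of the midgut sum came from Gs1l, at 997, 862 and 830 normalized counts. The Malpighian tubule list, the excretory organ with much V-ATPase, summed to 22680 to 25680 and 20220 to 23120, most of it from Ncc69 and CAH1, which other tissues also express. 1 of its 5 tested genes, the alkaline phosphatase gene Alp4, was called lower in limma (log2 fold change -1.35, adjusted p 0.0195), where 1.57% of all tested genes were. The part of these tissues in the Vha levels was not tested.

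**Figure D4:**
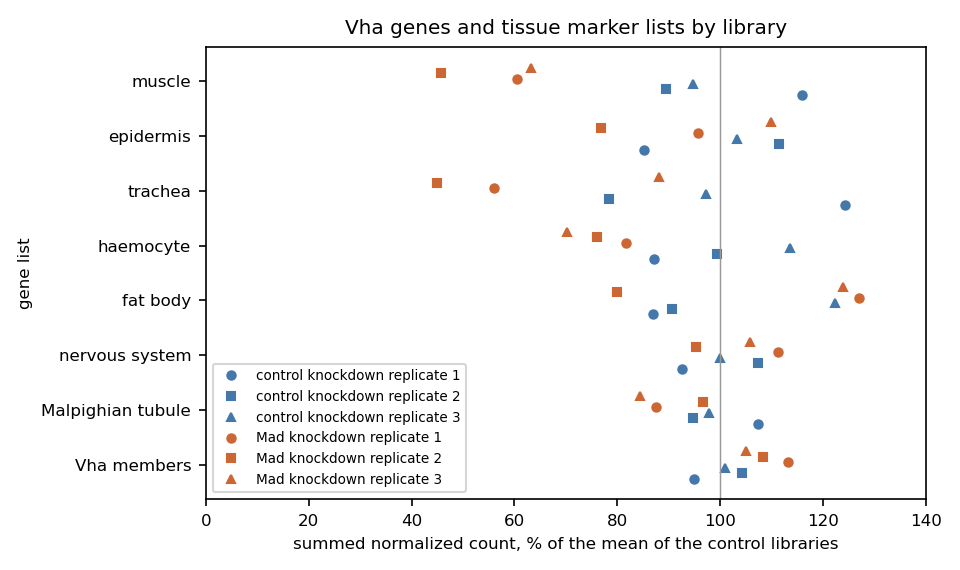
Summed normalized count of the Vha genes and of 7 tissue marker lists in each library, as a percentage of the mean of the control libraries. The Mad knockdown libraries lie at 45.6% to 63.3% for muscle markers and at 105.0% to 113.1% for the Vha genes.

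Which paralogue supplied a subunit was then compared within each library, a share that the scaling between libraries cannot move. Vha68-2 gave 92.6% ± 0.555 of the subunit A level per kb in controls and 93.5% ± 0.160 after Mad knockdown (SD, n = 3 each). Vha36-1 gave 88.7% ± 1.98 and 89.7% ± 1.16 of subunit D, and VhaM9.7-b gave 77.4% ± 1.57 and 77.9% ± 0.731 of subunit e. Vha100-2 gave 70.7% ± 1.90 of subunit a in controls and 74.3% ± 0.998 after Mad knockdown, with Vha100-1 supplying nearly all of the remainder. The groups did not overlap for Vha100-2, from 69.5% to 72.9% against 73.5% to 75.4%, or for Vha68-2, from 92.2% to 93.2% against 93.4% to 93.7%.

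Tests of the shares of 5 leading genes were chosen after their values were seen. Exact two-sided permutation tests gave p = 0.1 for Vha100-2 and for Vha68-2, the smallest that the design allows, and from 0.5 to 0.7 for Vha36-1, VhaM9.7-b and VhaAC45. After Benjamini-Hochberg adjustment over the 5 tests, these exact p-values were 0.25 for Vha100-2 and Vha68-2 and 0.7 for the others. The difference for Vha100-2 was 3.63 percentage points. Without control replicate 1 the differences for VhaM9.7-b and VhaAC45 turned from 0.507 and 0.086 points to -0.385 and -0.0053. How the authors' counting divided reads between similar paralogues is not given in the sources used here, so shares are uncertain to that degree.

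**Figure D5:**
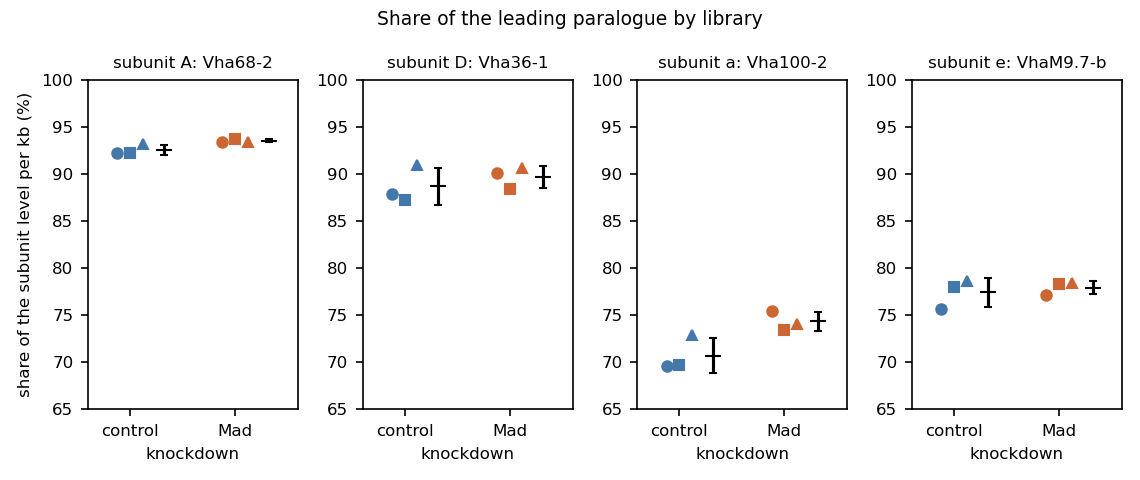
Share of the subunit level per kilobase supplied by the leading paralogue of subunits A, D, a and e in each library (points), with the group mean and SD (black). Vha100-2 averages 70.7% in controls and 74.3% after Mad knockdown, without overlap of the groups, and the vertical axis runs from 65% to 100%.

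Other genes of pump assembly, lysosomal signalling and lysosome function were read from 5 lists, with 42 genes tested. 1 gene of the 42 was called, against the background of 2.59%, and 21 had a fitted change above 0. The median log2 fold change over the 42 was 0.0030. In the list of assembly and regulation, none of 6 tested genes was called in limma and 0 had an unadjusted p under 0.05. It held Rbcn-3A and Rbcn-3B, which promote assembly of the pump, and Mitf, the transcription factor known in flies to act on V-ATPase genes. Mitf stood at 9289 ± 403 normalized counts in controls and 9699 ± 681 after Mad knockdown, with an adjusted p of 0.708 in limma. The largest changes in that list were those of mtd, at a log2 fold change of -0.25, and CG5969, at 0.17, with adjusted p-values of 0.323 and 0.330 in limma.

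Docking of the growth kinase Tor at the lysosome depends on the Rag GTPases and the Lamtor complex, which bind the pump. None of 8 tested genes of this list was called, 0 had an unadjusted p under 0.05, and the fitted changes of Lamtor3 and Tor, the largest, were 0.14 and 0.077 on the log2 scale. RagA-B stood at 2423 ± 13.1 in controls and 2422 ± 139 normalized counts after Mad knockdown.

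Among 10 lysosomal membrane and transport genes none was called in limma, and 1 higher (Cln3) and 1 lower (Npc2a) had an unadjusted p under 0.05. At that level 8.31% of all tested genes were higher and 10.7% lower. The amino acid transporter gene mnd had the largest fitted change, -0.49, with a wide spread from 8904 to 20640.2 normalized counts after Mad knockdown. Cln3, the fly counterpart of a human lysosomal storage disease gene, had 10149, 9822 and 10116 normalized counts in controls and 16201, 13702 and 12311 after Mad knockdown, without overlap. Its log2 fold change was 0.48, with an adjusted p of 0.0654 in limma. Npc2a had 3347, 3575 and 3359 in controls and 2377, 3009 and 2466 after Mad knockdown, lower without overlap. The log2 fold change of Npc2a was -0.40, with an adjusted p of 0.0938 in limma.

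Among 10 tested lysosomal hydrolase genes none was called in limma, and Hexo1 and Ppt1, both higher, had an unadjusted p under 0.05. Of all tested genes 8.31% were higher at that level. Hexo1, a hexosaminidase, had 19919, 18008 and 19210.5 normalized counts in controls and 28454, 25305 and 23411.5 after Mad knockdown, with an adjusted p of 0.0593 in limma. Ppt1, a thioesterase, had a fitted change of 0.28 on the log2 scale and did not pass (adjusted p 0.231 in limma). The cathepsin genes Cp1 and CtsB had log2 fold changes of 0.0073 and 0.043.

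Ion transporters and carbonic anhydrases that work beside proton pumps made up the last list. In limma 1 of its 8 genes was called, where 2.59% of all tested genes were. Nha1, an ion transporter, had 66465.5, 58207.5 and 60708 normalized counts in controls and 99450.0, 97617 and 81484 after Mad knockdown. Every Mad knockdown library was above every control, and the mean was 150.3% of control. limma put the log2 fold change at 0.58 (SE 0.105, adjusted p 0.0440). Leaving out 1 library ended this call in 5 of 6 cases, and it held without Mad knockdown replicate 3. CAH2, a carbonic anhydrase, had 3594, 5337 and 6969 in controls and 12432, 10107.5 and 14454 after Mad knockdown, again without overlap. Its log2 fold change of 1.25 had an adjusted p of 0.0561 in limma, and so did not pass. On the recovered counts of 5 libraries, DESeq2 called CAH2, Cln3 and Hexo1 as well as Nha1, and edgeR called Nha1 of these 4. Over all 10348 tested genes DESeq2 called 1105 and edgeR 174.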

How the data were processed

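The authors deposited a normalized signal, which is each gene count over a library size factor, without pooling replicates. dm6 is the build named in the submitters' processing notes, and the aligner, counter, annotation and strand setting are not given in the sources used here. Each value was within 0.001 of a whole multiple of its column's step, which gave recovered counts. In Mad knockdown replicate 3 the step lies so close to 1 that this recovery failed an automatic check of the column, and that library was left out of count tests.

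limma 3.58.1 (R 4.3.3; lmFit, eBayes with a trend, two-sided) compared the groups on log2(normalized count + 1) over the 10348 genes with at least 10 normalized counts in at least 3 libraries, with Benjamini-Hochberg adjustment over all of them. A gene was called at an adjusted p under 0.05. The pseudocount of 1 makes log2 fold changes of low genes too small. Recovered counts of the other 5 libraries were also tested with edgeR 4.0.16 and DESeq2 1.42.0.

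Exon lengths and positions come from Ensembl 115 (BDGP 6.54, dm6 coordinates), which may not be the authors' annotation. Every gene with a Vha symbol in the table is accounted for. Those with an unadjusted p under 0.05 and the most abundant per kb of each subunit are given by library, as are called genes. From each of the 5 other lists, called genes and the 2 largest changes among genes with a mean of at least 50 are named, and further genes were named after their values were seen. Names missing from the table as written were left out. The members and lists were chosen with earlier results of these data known. Alternatives were pseudocounts, filters, scalings, variance models, a replicate block and leaving out each library.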

Additional observations from a re-analysis of the deposited data

How the results depend on the processing

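No Vha gene was called under any alternative run: either other pseudocount (0.5 or 5), genes unfiltered or with a mean of 50 or more, scaling by quantiles or by the 75th percentile, no trend, robust fitting, the replicate block, leaving out each library, and edgeR and DESeq2 on the recovered counts of 5 libraries. The lowest adjusted p of a Vha gene over these was 0.105, in DESeq2. At an unadjusted p under 0.05 the Vha genes numbered from 0 to 4. The median change of the tested Vha genes and the shares of the leading paralogues moved by less than the spread between replicates, although without control replicate 1 the share differences of VhaM9.7-b and VhaAC45 changed sign and that of Vha36-1, 1.02 points, ran from 0.311 (without control replicate 2) to 2.15 (without control replicate 3). edgeR and DESeq2 were not run on all 6 libraries, nor was TMM scaling, because the whole counts of Mad knockdown replicate 3 did not pass the automatic test of recovery. Their use without that library was chosen after seeing the data.

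The count of all called genes, 268, became 138 without a trend, 174 in edgeR and 1105 in DESeq2 without Mad knockdown replicate 3, and ran from 43 (without control replicate 2) to 193 in limma fits that left out 1 library. Mad had an adjusted p of 0.0981 without a trend and 0.0967 in edgeR, at log2 fold changes of -0.57 and -0.56, and from -0.66 to -0.47 when 1 library was left out; DESeq2 on the same 5 libraries kept its call (-0.57, adjusted p 0.00245). The 1 call in the lysosome and transport lists became 0 with no filter, without a trend and with the block, 2 at 75th percentile scaling, 4 in DESeq2, and from 0 to 2 when 1 library was left out. Calls gained included CAH2 (adjusted p 0.00232), Cln3 (3.5e-06) and Hexo1 (3.0e-05) in DESeq2. Hexo1 was gained at 75th percentile scaling (0.0490) and Cln3 in limma without Mad knockdown replicate 3 (0.0489). The 1 call in limma without Mad knockdown replicate 2 was of another list gene, not identified here. In that fit Nha1, CAH2, Cln3 and Hexo1 had adjusted p-values of 0.109, 0.0928, 0.139 and 0.128. Nha1, the gene called, had adjusted p-values from 0.0842 to 0.151 in the limma fits that lost its call on leaving out a library other than Mad knockdown replicate 3. Fits on 5 libraries have fewer samples by construction, and beyond that the cause was not tested.

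Same-numbered libraries had correlations of deviations of -0.141, -0.066 and 0.0373, and the replicate numbers were therefore not treated as pairs. With the replicate block limma called 117 genes and no Vha gene, and Mad was at -0.57 with an adjusted p of 0.0787.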
